A study of Homo sapiens with 6 samples.

Results

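Among 5 lung cancer clones, each labelled with 1 secreted Frizzled-related protein (SFRP), the clones labelled SFRP1 and SFRP4 were set against those labelled SFRP2, SFRP3 and SFRP5. The division was chosen from the expression values themselves, because it separated the most genes, and does not come from the study's design. A gene was a member when its lowest value in one set of clones lay at least 1 log2 unit (2-fold) above its highest value in the other. Of 18365 genes on the array, 122 met this rule (0.664%). Of these, 104 also reached the median intensity of the whole table (641.8) on at least 1 array, where 11954 genes did so (0.87%), called the measured genes below. They comprise 45 genes higher in SFRP1 and SFRP4 (0.376% of those 11954) and 59 genes lower there (0.494%). Since the same values chose both the division and the members, all levels below are descriptions, no difference between the sets was tested, and the sets are not replicates of a condition.

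Per the labels, the cells are A549, an established human lung adenocarcinoma line, in a form called HM20, and the 6 RNA samples come from stable clones of SFRP1, SFRP2, SFRP3, SFRP4 and SFRP5 and from a mock clone. All 6, mock included, had been kept for 24 hours in medium with Wnt3a, a ligand that activates beta-catenin signalling. The labels say neither how HM20 differs from A549 nor which promoter drives each SFRP. Each label has 1 clone and 1 one-colour array, so the clone, the SFRP it carries and the array cannot be told apart, no error can be attached to a single reading, and precision is limited by having so few arrays. In extracts of whole cultures, fewer cells with a transcript and less of it per cell also cannot be told apart.

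SFRPs are secreted proteins with a cysteine-rich domain like the one by which Frizzled receptors bind Wnt ligands. They are best known as Wnt antagonists, and they can also promote Wnt signalling depending on the context. By sequence, SFRP1, SFRP2 and SFRP5 form one subfamily and SFRP3 (gene FRZB) and SFRP4 another, so the division described here runs across both subfamilies. Canonical Wnt signals stabilise beta-catenin, which then acts with TCF/LEF factors on target genes. In lung cancer lines, the growth factor and ERK pathway, the stress factor ATF4 and NF-kappaB are further well known controllers of the gene groups named below.

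None of the 5 SFRP probes was brightest on the array of its own clone, but only the SFRP1 and FRZB probes stayed above the 10th percentile on all 6 arrays. The probes thus do not bear out the clone labels, and SFRP1 to SFRP5 below stand for the libraries so labelled. The SFRP1 probe read 88063 on the SFRP1 array and 37206 on SFRP4, against 72334 on SFRP2, 110461 on SFRP3 and 63703 on SFRP5, with 58836 on mock. The SFRP3 gene FRZB, above the 10th percentile on all 6 arrays, read 512 in SFRP1 and 734 in SFRP4 but 479.6, 436 and 666 in SFRP2, SFRP3 and SFRP5, and 476 in mock, and so was lowest on the array labelled SFRP3. For SFRP4 the reading was 53.3 on its own clone's array, and the rest lay between 41.3 and 98.9. This probe lay below the 10th percentile of its array on 4 of the 6, as did the SFRP5 probe (44.5 on its own clone's array), and the SFRP2 probe did so on 3. The order of such dim readings carries no meaning, so the SFRP2, SFRP4 and SFRP5 probes neither bear out the labels nor go against them. No SFRP gene was a member, and where these probes sit relative to an expressed insert was not known. Array medians lay between 599.6 and 689.0 and the 10th percentiles, used below as the floor, between 53.2 and 91.0. The SFRP4 array stood apart at the dim end, with 22 values below 0 and 131 below 10, against 77 below 10 on SFRP3, 1 on SFRP5 and 0 on the others. Of the 10 A549-associated genes on the array, 6 reached the table median. NQO1, ALDH1A1, EPCAM and AKR1C2, which A549 cells are known to express, were under it on all 6 arrays (NQO1 at 62.3 to 109.6), while TXNRD1 read 41131 to 239789. The summed intensity of these 10 genes was 144455 in SFRP1, 47820 in SFRP4, 148290 in SFRP2, 168976 in SFRP3, 248760 in SFRP5 and 102984 in mock, and TXNRD1 made up most of it. Of other cell types, the 10 fibroblast markers summed to 3761 in SFRP1, 6724 in SFRP4, 3634 in SFRP2, 4828 in SFRP3, 5835 in SFRP5 and 3646 in mock. Of these markers 3 reached the table median. The 12 blood and endothelial markers summed to 12517, 6881, 11295, 8779, 11957 and 16424.5 in the same order, highest in mock. Of these 6 reached the median, and the leukocyte gene PTPRC was at 22.9 to 78.3 over the clones. None of the fibroblast, blood or endothelial markers above the table median was separated between the sets at any distance, and the part of such cells in the results was not tested.

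Promoter sequences of 4 members are shown because the members of 4 regulated groups below can be looked up in them: EGR1 for the immediate early genes, CXCL1 for the NF-kappaB targets, DDIT3 for the stress genes and GCLM for the glutathione genes. Each is the 250 bases before the RefSeq start of the gene in GRCh38.p14, written 5′ to 3′ on the gene's strand, with the matches to 1 motif in capitals. These are the CArG box in EGR1 (chr5:138465229-138465478, plus strand), the NF-kappaB site in CXCL1 (chr4:73869143-73869392, plus strand), the AP-1 site TGANTCA in DDIT3 (chr12:57520515-57520764, minus strand) and the antioxidant response element TGACNNNGC in GCLM (chr1:93909431-93909680, minus strand).
EGR1: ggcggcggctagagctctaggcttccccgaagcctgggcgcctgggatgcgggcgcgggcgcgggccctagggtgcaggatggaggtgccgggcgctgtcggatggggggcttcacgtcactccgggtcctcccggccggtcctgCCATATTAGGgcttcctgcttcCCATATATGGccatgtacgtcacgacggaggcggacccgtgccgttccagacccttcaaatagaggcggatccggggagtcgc
CXCL1: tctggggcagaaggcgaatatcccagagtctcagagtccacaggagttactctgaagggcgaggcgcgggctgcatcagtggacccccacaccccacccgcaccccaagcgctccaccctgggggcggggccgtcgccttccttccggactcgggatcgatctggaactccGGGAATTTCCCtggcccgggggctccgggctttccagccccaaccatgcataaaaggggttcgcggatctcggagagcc
DDIT3: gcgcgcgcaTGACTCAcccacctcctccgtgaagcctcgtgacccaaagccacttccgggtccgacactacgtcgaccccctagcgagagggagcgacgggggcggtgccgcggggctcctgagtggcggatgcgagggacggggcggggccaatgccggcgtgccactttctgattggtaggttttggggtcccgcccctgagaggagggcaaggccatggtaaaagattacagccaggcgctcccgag
GCLM: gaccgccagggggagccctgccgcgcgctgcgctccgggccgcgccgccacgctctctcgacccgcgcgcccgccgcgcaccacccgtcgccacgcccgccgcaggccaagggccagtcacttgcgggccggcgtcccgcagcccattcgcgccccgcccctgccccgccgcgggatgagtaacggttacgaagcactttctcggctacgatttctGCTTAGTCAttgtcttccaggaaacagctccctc
EGR1 holds 2 CArG boxes, the site of serum response factor, and CXCL1 holds 2 overlapping matches to the NF-kappaB site, 1 on each strand. Promoters were on hand for 30 of the 45 higher and 45 of the 59 lower members and for 27305 genes in all. A CArG box occurred in 1 of the 30, in 1 of the 45 and in 1.14% of all promoters. The NF-kappaB site was in 3 of the 30 (CXCL1, PTPRD and OLFML2A), in 7 of the 45 (PAEP, IGFBP6, GDF15, SESN2, BIRC3, STXBP3 and NFKBIZ) and in 9.57% of all. For TGANTCA the counts were 1 and 3, with 6.60% of all, and for TGACNNNGC they were 1 and 5, with 11.03% of all. The TCF/LEF letters ATCAAAG were in 0 of the 30 and 0 of the 45, against 2.28% of all promoters. Of the other 4 motifs searched, TGACGTCA was found in 0 and 3 promoters (1.77% of all), TTGCATCA in 0 and 1 (0.82%), CACGTG in 1 and 1 (6.49%), and the ER stress response element in none (0.0806%). Both strands were searched, the motifs were chosen after the members were known, and a match is only a match of letters.

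The genes highest above the other clones in SFRP1 and SFRP4 were led by BASP1, which encodes a lipid-anchored protein of the inner membrane and nucleus. The BASP1 probe read 96891 and 76013 in SFRP1 and SFRP4, 1173, 6282 and 7145 in SFRP2, SFRP3 and SFRP5, and 9622 in mock. Both values of the first set were therefore over 10 times any value of the other, and the mock reading lay between the sets. Its gap, the log2 distance between the nearest arrays of the sets (negative where SFRP1 and SFRP4 were lower), was 3.41, the largest of all 104 genes, and its other probe had a gap of 2.85. IGFBP7, a secreted binder of insulin-like growth factors, read 3153 on the SFRP1 array and 3091 on SFRP4, against 379 on SFRP2, 454 on SFRP3 and 531 on SFRP5, with 2543 on mock, a gap of 2.54. SFRP1, SFRP4 and mock were close together for this gene and the other 3 clones were low. TNFRSF21 (death receptor 6) read 6633 in SFRP1 and 29813 in SFRP4 but 805, 1264 and 739 in SFRP2, SFRP3 and SFRP5, and 816 in mock, so that SFRP4 stood well above SFRP1 and mock lay among the lower clones. CEBPD, a transcription factor of the acute-phase response, read 69596 and 42647 in SFRP1 and SFRP4, 5646, 7264 and 10521 in SFRP2, SFRP3 and SFRP5, and 29695 in mock. The ubiquitin ligase gene RNF157 gave 2018 on the SFRP1 array and 4885 on SFRP4, against 538 on SFRP2, 407 on SFRP3 and 267 on SFRP5, with 1180.4 on mock, and its second probe had a gap of 1.96.

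**Figure D1:**
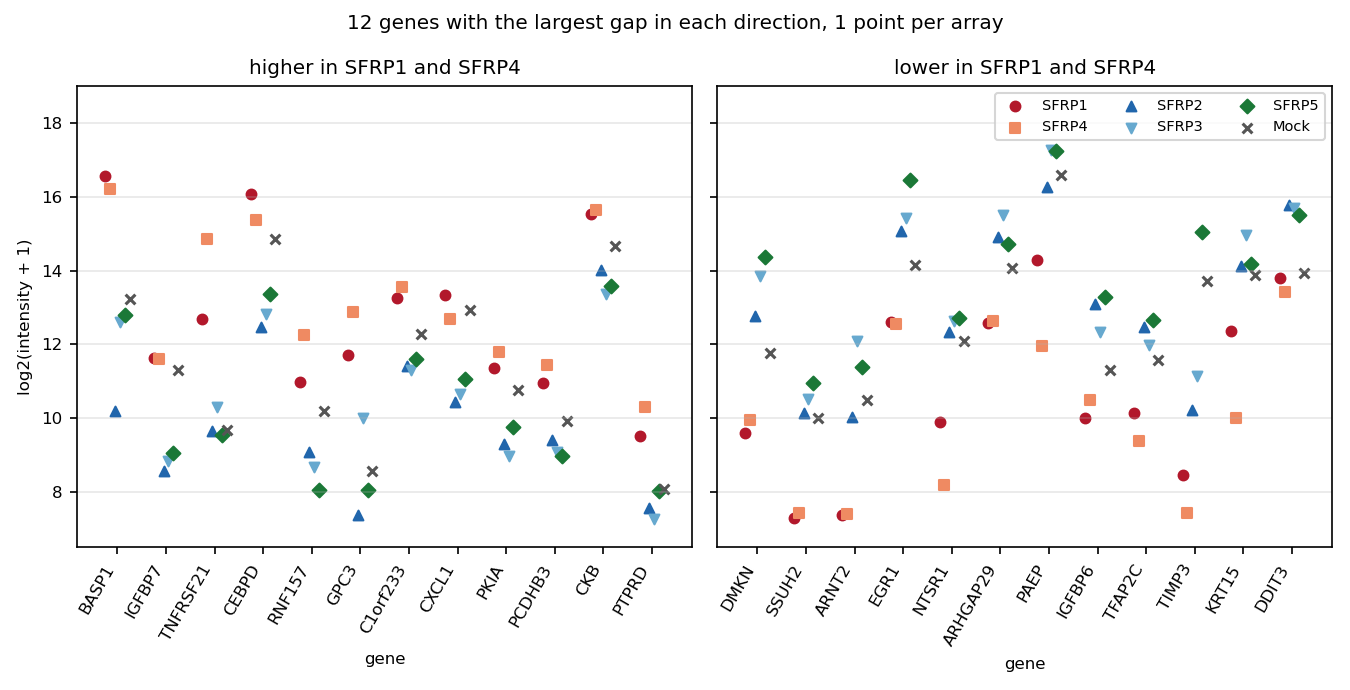
The vertical axis is log2(intensity + 1) and each point is 1 array, for the 12 genes with the largest gap in each direction, ordered by gap. In every gene shown the SFRP1 and SFRP4 points (red and orange) lie on one side of SFRP2, SFRP3 and SFRP5 (blue shades and green), as the choice of members fixes, and the mock cross lies between the sets for genes such as BASP1 and EGR1 but with SFRP1 and SFRP4 for CXCL1.

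The other 7 of the 12 genes with the widest gap in this direction follow. GPC3, a heparan sulphate proteoglycan that binds Wnt ligands, read 3325 in SFRP1 and 7514 in SFRP4 but 165, 1017 and 267 in SFRP2, SFRP3 and SFRP5, and 378 in mock. It spread widely in both sets, with SFRP3 well above SFRP2 and SFRP5. CXCL1, a neutrophil chemokine, read 10408 and 6631 in SFRP1 and SFRP4, 1374, 1605 and 2154 in SFRP2, SFRP3 and SFRP5, and 7772 in mock, so mock lay inside the range of SFRP1 and SFRP4, and its second probe gave a gap of 1.21. The protocadherin gene PCDHB3 read 1978 on the SFRP1 array and 2786 on SFRP4, against 677 on SFRP2, 542 on SFRP3 and 500.2 on SFRP5, with 963 on mock. The receptor tyrosine phosphatase gene PTPRD read 738 in SFRP1 and 1268 in SFRP4 but 188, 152 and 258 in SFRP2, SFRP3 and SFRP5, and 271 in mock, and its dimmer second probe had a gap of 1.07. PTPRD was thus low on mock as well as on the other 3 clones. Inside the cell, PKIA, an inhibitor of cAMP-dependent protein kinase, read 2638 and 3559.6 in SFRP1 and SFRP4, 623, 498 and 863 in SFRP2, SFRP3 and SFRP5, and 1722 in mock. CKB, the brain-type creatine kinase, read 47217 on the SFRP1 array and 51509.6 on SFRP4, against 16503 on SFRP2, 10535 on SFRP3 and 12343 on SFRP5, with 26020.5 on mock, with a second probe at a gap of 1.27. C1orf233 (FNDC10 in RefSeq) read 9745 in SFRP1 and 11919.5 in SFRP4 but 2742, 2545 and 3094 in SFRP2, SFRP3 and SFRP5, and 4999.6 in mock. For these 3 genes the mock array lay between the sets.

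Further members higher in SFRP1 and SFRP4 are named here after their values were seen. PTK7, a pseudokinase co-receptor of Wnt signalling, read 574 and 1391 in SFRP1 and SFRP4, 279, 271 and 167 in SFRP2, SFRP3 and SFRP5, and 609.9 in mock, a gap of 1.04. NXN (nucleoredoxin, a Dishevelled binder) read 1071 on the SFRP1 array and 937 on SFRP4, against 456 on SFRP2, 453 on SFRP3 and 277 on SFRP5, with 359 on mock, a gap of 1.04. TNC, the matrix glycoprotein tenascin-C, read 13449 in SFRP1 and 6429 in SFRP4 but 3069, 712 and 1176 in SFRP2, SFRP3 and SFRP5, and 3510.1 in mock. SFRP2 and mock were nearly level for TNC, and its second probe did not separate the sets. The growth factor gene PDGFC read 2303 and 5705 in SFRP1 and SFRP4, 785, 545 and 1111 in SFRP2, SFRP3 and SFRP5, and 1631 in mock. The acute-phase protease inhibitor gene SERPINA3 read 1034 on the SFRP1 array and 1942 on SFRP4, against 319 on SFRP2, 212 on SFRP3 and 373 on SFRP5, with 1693 on mock. SERPINA3 on mock was thus within the range of SFRP1 and SFRP4. The metastasis-associated phosphatase gene PTP4A3 read 3917 in SFRP1 and 9237 in SFRP4 but 1035, 1438 and 1156 in SFRP2, SFRP3 and SFRP5, and 5019 in mock, also with mock inside the higher range. GJB2 (connexin 26) read 1081 and 1082 in SFRP1 and SFRP4, 487, 173 and 181 in SFRP2, SFRP3 and SFRP5, and 192 in mock, with mock among the low arrays.

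The genes lower in SFRP1 and SFRP4 were headed by DMKN, which encodes the secreted epidermal protein dermokine. DMKN read 776 on the SFRP1 array and 991 on SFRP4, against 6971 on SFRP2, 14878 on SFRP3 and 21306 on SFRP5, with 3476 on mock, a gap of -2.81, and its second probe had a gap of -2.67. SSUH2 read 157 in SFRP1 and 171 in SFRP4 but 1129, 1463 and 1993 in SFRP2, SFRP3 and SFRP5, and 1019 in mock. ARNT2, a bHLH-PAS transcription factor gene, read 166 and 169 in SFRP1 and SFRP4, 1036, 4359.6 and 2681 in SFRP2, SFRP3 and SFRP5, and 1443 in mock. For both genes SFRP1 and SFRP4 were close to each other and all the remaining arrays, mock included, were high. NTSR1, the neurotensin receptor, read 956 on the SFRP1 array and 289.7 on SFRP4, against 5209.9 on SFRP2, 6369 on SFRP3 and 6775 on SFRP5, with 4347 on mock, with SFRP4 the lower of its pair. PAEP, the secreted glycoprotein glycodelin, was among the brightest, at 19968 in SFRP1 and 3939 in SFRP4 but 79094, 157606 and 155212 in SFRP2, SFRP3 and SFRP5, and 97829.7 in mock. IGFBP6, another secreted binder of insulin-like growth factors, had the opposite pattern to IGFBP7. It read 1033 and 1435 in SFRP1 and SFRP4, 8746, 5166 and 9931 in SFRP2, SFRP3 and SFRP5, and 2533 in mock. TFAP2C (the transcription factor AP-2 gamma) read 1138 on the SFRP1 array and 667 on SFRP4, against 5707 on SFRP2, 4036 on SFRP3 and 6467 on SFRP5, with 3029 on mock.

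TIMP3, an inhibitor of matrix metalloproteinases, read 349 in SFRP1 and 171 in SFRP4 but 1191, 2271 and 33892 in SFRP2, SFRP3 and SFRP5, and 13336 in mock. SFRP5 and mock were high, SFRP2 and SFRP3 intermediate and SFRP1 and SFRP4 low, so the set means differed by -4.20 although the gap was -1.77. The 3 keratin genes among the members, all of which encode epithelial intermediate filaments, were lower in SFRP1 and SFRP4. KRT15 read 5301 and 1030.3 in SFRP1 and SFRP4, 17932, 31698 and 18489.5 in SFRP2, SFRP3 and SFRP5, and 15195 in mock. KRT19 read 260.4 on the SFRP1 array and 223 on SFRP4, against 793 on SFRP2, 2687 on SFRP3 and 2593 on SFRP5, with 2634 on mock. KRT8 read 462 in SFRP1 and 455 in SFRP4 but 945, 1214 and 2119 in SFRP2, SFRP3 and SFRP5, and 891 in mock. SFRP1 and SFRP4 were level for KRT8 and KRT19, while KRT15 was higher in SFRP1 than in SFRP4 by 2.36 log2 units. Of the 21 epithelial junction and keratin genes above the table median, 2 (KRT19 and KRT8) were lower by the 1-unit rule and none higher, where 0.494% and 0.376% of all measured genes were. At any distance 5 of the 21 were lower and 2 higher (16.4% and 14.7% of all measured genes), and the median difference of set means was -0.035. LSR, a protein of tricellular junctions, and PARD6B, a cell polarity protein, were further lower members, with gaps of -1.29 and -1.10.

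**Figure D2:**
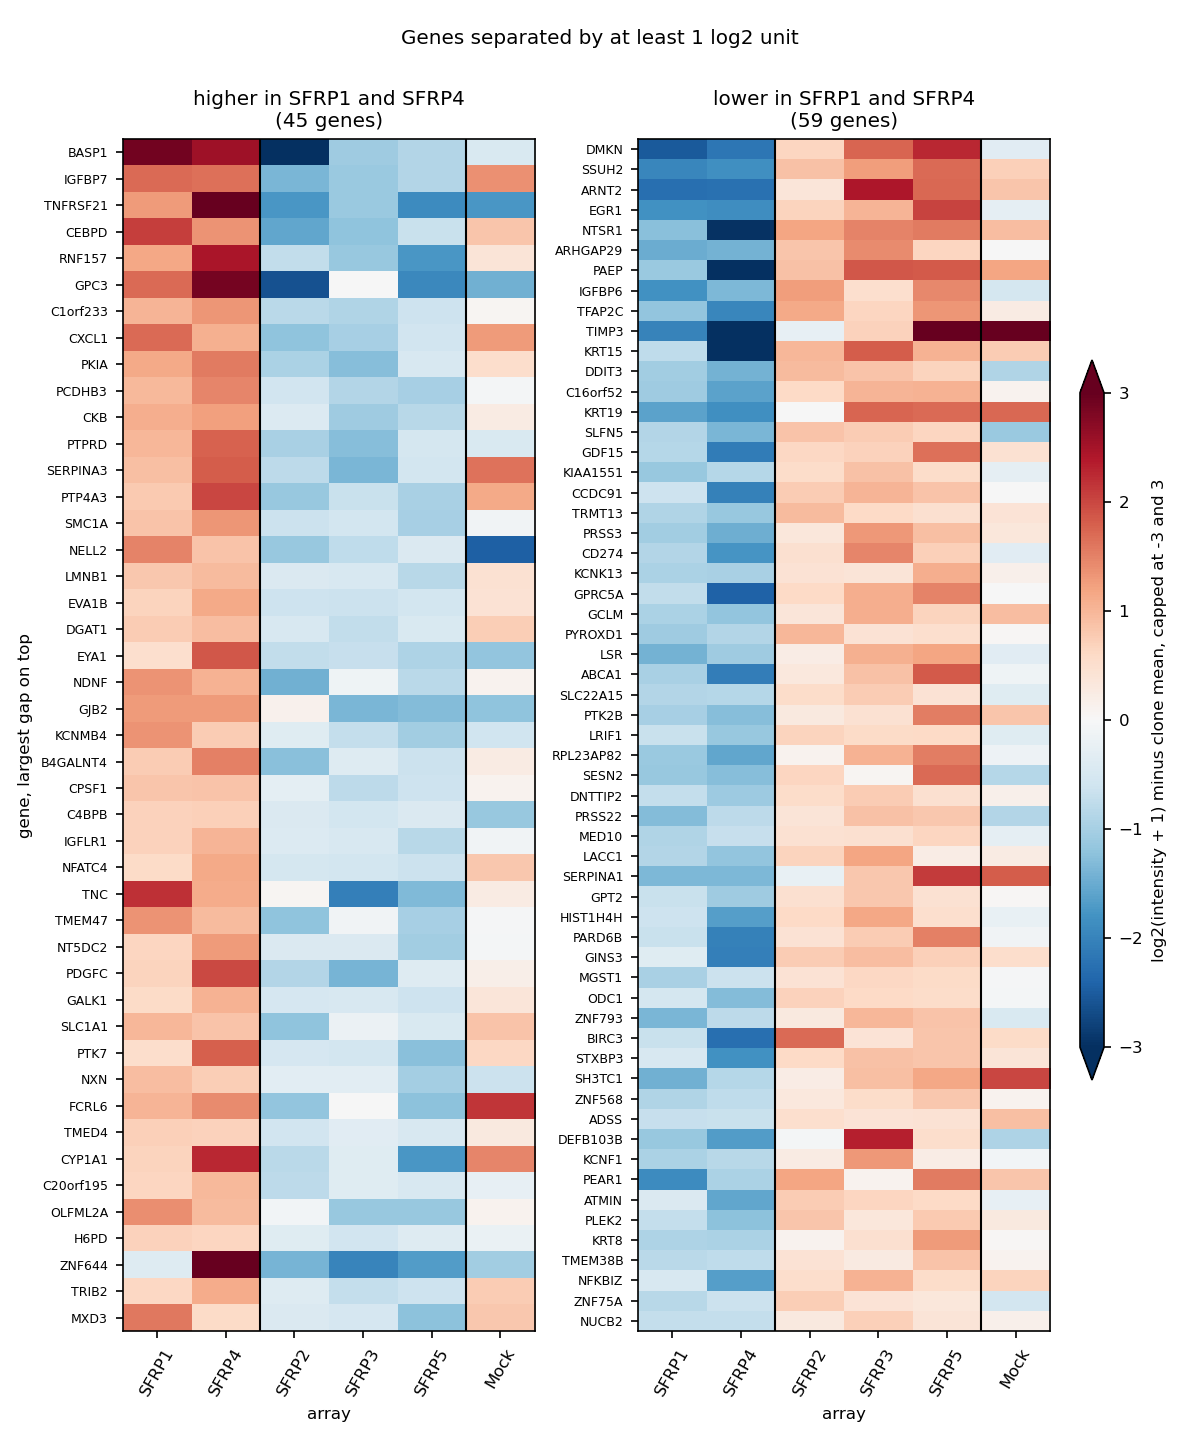
Each row is 1 of the 104 genes and each column 1 array, with colour giving log2(intensity + 1) minus the mean of the 5 clones (red higher, blue lower, capped at -3 and 3), and black lines set off the 2 sets and mock. The first 2 columns differ from the next 3 in every row by construction, and the mock column matches neither set throughout: it lay in the gap for 28 of the 45 higher and 43 of the 59 lower genes. The position of mock was not counted over all measured genes.

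EGR1, an immediate early transcription factor gene induced through ERK and serum response factor, read 6187 and 5993 in SFRP1 and SFRP4, 34643, 44297 and 89149 in SFRP2, SFRP3 and SFRP5, and 18128 in mock. SFRP1 and SFRP4 were nearly equal, SFRP5 was the highest, and mock lay in the gap of -2.49. EGR1 was the only 1 of the 28 measured genes of the list of EGF-family ligands, receptors and ERK feedback to pass the 1-unit rule. Of all measured genes 0.87% passed that rule. At any distance, 12 of the 28 had both SFRP1 and SFRP4 below the other 3 clones and 5 had both above, against 16.4% and 14.7% of all 11954 genes. The median difference of the set means over the 28 was -0.61, against -0.00046 over all genes. DUSP6, an ERK phosphatase induced by ERK itself, read 472 on the SFRP1 array and 373 on SFRP4, against 1283 on SFRP2, 935 on SFRP3 and 1693 on SFRP5, with 854 on mock, just short of the rule at -0.99. DUSP4 (-0.67) and DUSP1 (-0.56) and the immediate early genes FOSB (-0.45), IER2 (-0.43) and FOS (-0.38) had smaller gaps of the same sign. FOS read 1596 in SFRP1 and 1565 in SFRP4 but 2449, 2080.3 and 9949 in SFRP2, SFRP3 and SFRP5, and 1864 in mock, so only SFRP5 stood well apart and the remaining arrays were close. EGFR, the receptor, had a gap of 0.10 in the other direction.

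DDIT3 (CHOP), a transcription factor of the ATF4 stress response, read 14252 and 10949 in SFRP1 and SFRP4, 56463, 52602 and 46548 in SFRP2, SFRP3 and SFRP5, and 15782 in mock. Mock was close to SFRP1 and SFRP4 here, and SFRP2, SFRP3 and SFRP5 were the arrays that stood apart. SESN2, a stress-induced regulator of mTORC1, read 4711 on the SFRP1 array and 4246 on SFRP4, against 16249 on SFRP2, 10811 on SFRP3 and 33848 on SFRP5, with 5677 on mock, with the same position of mock. Of the 31 genes of the unfolded protein response and ATF4 list, all above the table median, these 2 were lower by the 1-unit rule and none higher. Of all measured genes, 0.494% were lower and 0.376% higher by that rule. At any distance, 16 of the 31 were lower and 1 higher in both SFRP1 and SFRP4 (background 16.4% and 14.7%), and the median difference of set means was -0.84. The chaperone gene DNAJB9 had a gap of -0.97, and HERPUD1, of ER-associated degradation, -0.86. PSAT1, of serine synthesis, read 34096 in SFRP1 and 31499 in SFRP4 but 63306, 61501 and 92081 in SFRP2, SFRP3 and SFRP5, and 39073 in mock. The amino acid transporter gene SLC7A5 (-0.72), the pseudokinase gene TRIB3 (-0.70) and the factors CEBPB (-0.67) and ATF3 (-0.63) followed. The exception in sign was DDIT4, an inhibitor of mTORC1, at 0.55. GDF15, a secreted stress cytokine that is also a p53 target, read 2612 and 1092 in SFRP1 and SFRP4, 7289.5, 7549 and 14703 in SFRP2, SFRP3 and SFRP5, and 6472 in mock. With SESN2 it was 1 of 2 separated genes among 23 p53 targets, both lower, where 0.494% of all measured genes were. At any distance 6 of the 23 were lower and 4 higher, beside the same background, and the median difference was -0.13.

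**Figure D3:**
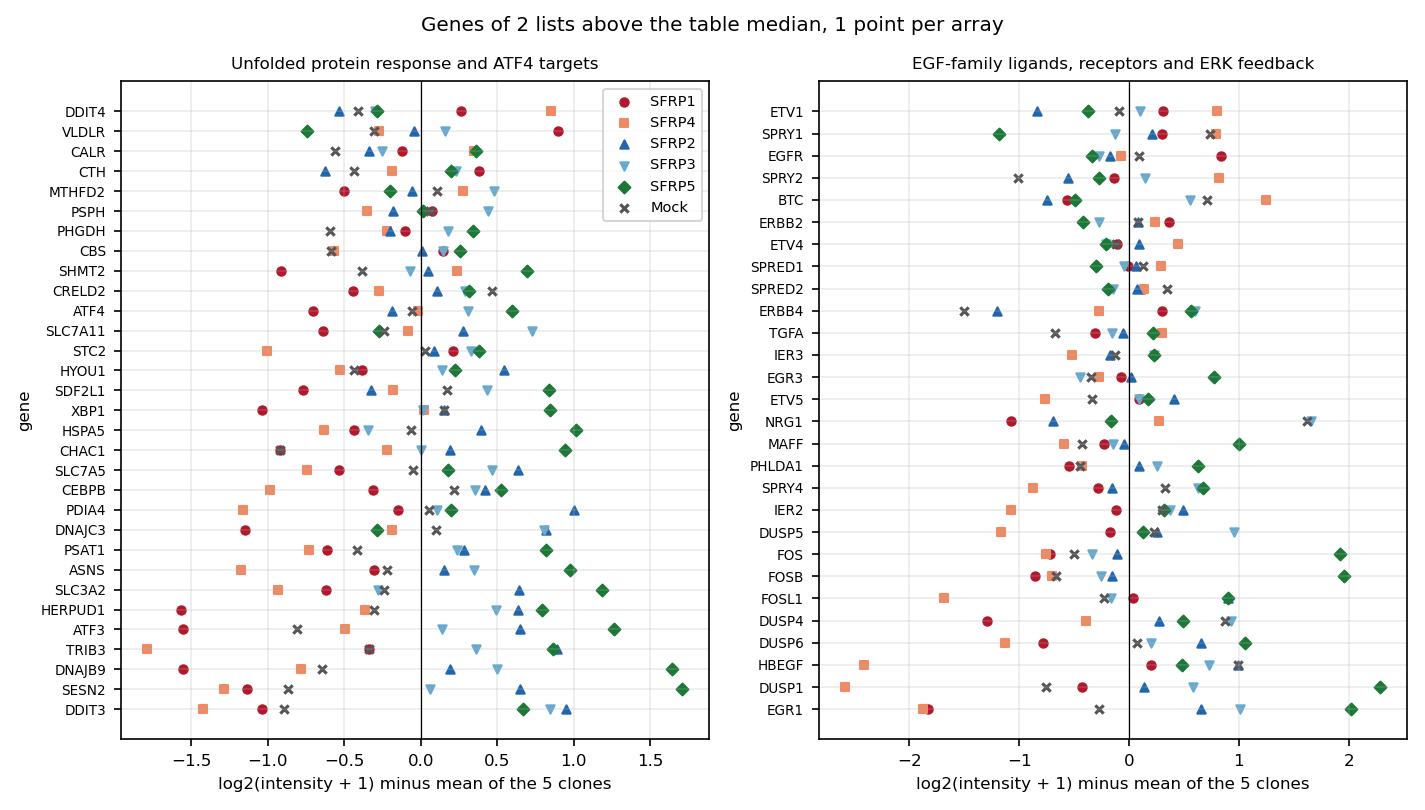
The horizontal axis is log2(intensity + 1) minus the mean of the 5 clones, each row is 1 gene of the named list above the table median, and each point is 1 array. In the left plot the red and orange points of SFRP1 and SFRP4 lie left of the other clones for 16 of 31 genes, and in the right plot for 12 of 28, where the green diamonds of SFRP5 lie farthest right for EGR1, DUSP1, FOS and FOSB.

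Among the glutathione genes, GCLM, the modifier subunit of the enzyme that starts glutathione synthesis, read 3031 on the SFRP1 array and 2584 on SFRP4, against 7520.1 on SFRP2, 12347 on SFRP3 and 9339 on SFRP5, with 11007 on mock. MGST1, a microsomal glutathione transferase, read 9019 in SFRP1 and 11340.1 in SFRP4 but 24077, 27488 and 26398 in SFRP2, SFRP3 and SFRP5, and 17278 in mock. They were the 2 separated genes of 25 on the list of NRF2, glutathione and aldo-keto reductase genes, where 0.494% of all measured genes were lower by that rule. At any distance 8 of the 25 were lower and 4 higher (16.4% and 14.7% of all measured genes), with a median difference of -0.33. GCLC, the catalytic partner of GCLM, had the opposite order, at 2332 and 2059 in SFRP1 and SFRP4, 1327, 1382 and 730.2 in SFRP2, SFRP3 and SFRP5, and 1071 in mock. Among 30 chemokine, cytokine and NF-kappaB genes, BIRC3 (the apoptosis inhibitor cIAP2) was lower and CXCL1 higher in SFRP1 and SFRP4. Of all measured genes, 0.494% were lower and 0.376% higher by the 1-unit rule. At any distance 4 of the 30 were lower and 2 higher, with a median difference of -0.36. BIRC3 read 689 on the SFRP1 array and 228 on SFRP4, against 3576 on SFRP2, 1454 on SFRP3 and 1959.6 on SFRP5, with 1641 on mock. Outside that list, the nuclear IkappaB gene NFKBIZ was lower as well, at 2807 in SFRP1 and 1256 in SFRP4 but 5684, 8047 and 5756 in SFRP2, SFRP3 and SFRP5, and 6199.7 in mock. CD274 (the immune checkpoint ligand PD-L1) read 865 and 466 in SFRP1 and SFRP4, 2236, 4396 and 2630.2 in SFRP2, SFRP3 and SFRP5, and 1261 in mock, and its second probe had a gap of -0.29.

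Further lower members came from single lists. ABCA1, a cholesterol exporter, read 4022 on the SFRP1 array and 1872 on SFRP4, against 9858 on SFRP2, 14422 on SFRP3 and 28113 on SFRP5, with 7237 on mock. GINS3, a subunit of the replicative helicase, read 4698 in SFRP1 and 1472 in SFRP4 but 10340.2, 11652 and 10067 in SFRP2, SFRP3 and SFRP5, and 8803 in mock, with SFRP4 well below SFRP1. SERPINA1 (alpha-1 antitrypsin) read 193 and 194 in SFRP1 and SFRP4, 423, 871 and 2136 in SFRP2, SFRP3 and SFRP5, and 1737 in mock, but its second probe did not separate the sets (difference of set means 0.08) and was the brighter one when mock was left out of the choice of probe. Of 37 lists, 15 held a separated gene. Of the 104 members 18 were on a list, where the lists held 752 of all 11954 measured genes. The lists were chosen with earlier results of these data known, so this overlap is only a description. Of these 18 members 4 were higher and 14 lower, against 45 and 59 of all 104. The lists on Wnt ligands, receptors and transducers (33 genes measured), secreted Wnt antagonists (9), Wnt/beta-catenin targets (25) and cancer stem cell markers (13) held none. The members GPC3, PTK7 and NXN, described above by their links to Wnt signalling, were not on these lists. The share of all measured genes that passed the rule was 0.87%. At any distance 7 of the 33 Wnt pathway genes were higher and 1 lower in SFRP1 and SFRP4, where 14.7% and 16.4% of all measured genes were, with LRP5, a Wnt co-receptor, at 765 on the SFRP1 array and 706 on SFRP4, against 455 on SFRP2, 347 on SFRP3 and 414 on SFRP5, with 348 on mock. The Frizzled genes FZD9 (0.57), FZD2 (0.53) and FZD4 (0.35) had smaller gaps of that sign. Of the 25 beta-catenin targets 3 were higher and none lower at any distance, against the same background, with a median difference of 0.03.

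Several more members are described here, also named after their values were seen. LMNB1, a nuclear lamina protein, read 2084 in SFRP1 and 2333 in SFRP4 but 883, 863 and 667 in SFRP2, SFRP3 and SFRP5, and 1643 in mock. SMC1A, a cohesin subunit, read 1683 and 2350.3 in SFRP1 and SFRP4, 595, 631 and 469.8 in SFRP2, SFRP3 and SFRP5, and 865 in mock, so mock lay between the sets for SMC1A. The glutamate transporter gene SLC1A1 read 8842 on the SFRP1 array and 8145 on SFRP4, against 1931 on SFRP2, 3941 on SFRP3 and 3241 on SFRP5, with 8126 on mock. The calcium-regulated factor gene NFATC4 read 1036 in SFRP1 and 1539 in SFRP4 but 487, 473 and 446 in SFRP2, SFRP3 and SFRP5, and 1227 in mock. For NFATC4 mock lay inside the range of SFRP1 and SFRP4. GALK1, the galactokinase, read 23680.2 and 33038 in SFRP1 and SFRP4, 11341, 11455 and 10417 in SFRP2, SFRP3 and SFRP5, and 20685 in mock. EYA1, a phosphatase and transcriptional co-activator of development, read 299.6 on the SFRP1 array and 773 on SFRP4, against 127 on SFRP2, 132 on SFRP3 and 111 on SFRP5, with 93.0 on mock. EYA1 on mock lay below every clone. CYP1A1, a xenobiotic oxidase induced through the aryl hydrocarbon receptor, read 291 in SFRP1 and 881 in SFRP4 but 103, 142 and 54.3 in SFRP2, SFRP3 and SFRP5, and 504 in mock, with 1 reading under the floor of its array.

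In the lower direction, GPRC5A read 7648 and 2356 in SFRP1 and SFRP4, 19195, 27124 and 35997 in SFRP2, SFRP3 and SFRP5, and 12659 in mock. PTK2B, a focal adhesion kinase relative, read 253 on the SFRP1 array and 208 on SFRP4, against 616 on SFRP2, 688 on SFRP3 and 1452 on SFRP5, with 902 on mock. GPT2, the mitochondrial alanine aminotransferase, read 2237 in SFRP1 and 1699.9 in SFRP4 but 4935, 6236 and 4859 in SFRP2, SFRP3 and SFRP5, and 3635 in mock. SFRP4 was the lowest array for all of these genes. PLEK2, a pleckstrin family protein, read 18126 and 12629 in SFRP1 and SFRP4, 52427, 37107 and 50634 in SFRP2, SFRP3 and SFRP5, and 36443 in mock. The potassium channel gene KCNK13 read 481 on the SFRP1 array and 466 on SFRP4, against 1251 on SFRP2, 1215 on SFRP3 and 1961 on SFRP5, with 1026 on mock. The zinc finger gene ATMIN, a cofactor of the kinase ATM, read 577 in SFRP1 and 266 in SFRP4 but 1325, 1223 and 1189 in SFRP2, SFRP3 and SFRP5, and 665 in mock. The serine protease gene PRSS22 read 1336 and 1929 in SFRP1 and SFRP4, 4309, 6102 and 5761 in SFRP2, SFRP3 and SFRP5, and 1803 in mock, with mock near SFRP4. DEFB103B, PRSS3, RPL23AP82 and HIST1H4H (H4C8 in RefSeq) were lower members with related genes elsewhere in the genome, as PCDHB3 also has. How far the probes of these genes also read their relatives was not tested.

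The threshold cut through a dense range of values. Just inside it, higher in SFRP1 and SFRP4, were MXD3, TRIB2 and ZNF644 (absolute gaps 1.00, 1.00 and 1.01), and just outside NARF (0.998), PTTG1 (0.991) and HCFC1R1 (0.988). ZNF644 read 48.9 on the SFRP1 array and 2916 on SFRP4, against 23.9 on SFRP2, 15.6 on SFRP3 and 19.5 on SFRP5, with 31.0 on mock, so it reached the table median on SFRP4 alone, and with readings raised to the floor its gap was 0.24. In the lower direction NUCB2, ZNF75A and NFKBIZ (1.01, 1.01 and 1.02) were just inside and C1orf27 (0.998), CORO2B (0.996) and FOXF1 (0.995) just outside. Gaps of 2 or more were found in 10 of the 104 genes, 4 higher and 6 lower, and 77 had a gap under 1.5. Of the higher genes 17 and of the lower genes 20 reached the table median through the higher set or mock alone, and so had to be low in the other set. The 18 members below the table median, 13 higher and 5 lower, are not described singly: 10 of them had a clone reading under the floor, and 12 kept the 1-unit distance with readings raised to it.

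Within the sets the clones were not alike. SFRP1 and SFRP4 lay at least 1 log2 unit apart for 11 of the 45 higher and 15 of the 59 lower genes, where 13.7% of all 11954 genes did. The farther array of the pair was SFRP4 for 30 of the 45 and 37 of the 59. Examples are NTSR1, PAEP and GPRC5A, an orphan receptor of lung epithelium, in which SFRP1 exceeded SFRP4 by 1.72, 2.34 and 1.70 (log2). Among the other set, SFRP2 was the array nearest to SFRP1 and SFRP4 for 19 of the 45 and 33 of the 59 genes. SFRP3 was the nearest for 14 and 11, and SFRP5 for 12 and 15. Which array was the farther or the nearest was not counted over all measured genes. These counts therefore do not show a trait particular to the members. SFRP2, SFRP3 and SFRP5 spread over at least 2 log2 units for 3 of the higher and 4 of the lower genes (2.29% of all genes), TIMP3 among them.

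The mock array entered the choice of probe and the filter on dim genes, but not the separation of the sets. For the 45 higher genes it lay in the gap for 28, within the range of SFRP1 and SFRP4 for 8, within that of the other 3 clones for 5, below both sets for 3 and above both for 1. For the 59 lower genes it lay in the gap for 43, within the range of SFRP2, SFRP3 and SFRP5 for 12, within that of SFRP1 and SFRP4 for 2, and above both for 2. Such positions were not counted over all measured genes, and the gap required of members leaves room for mock between the sets. Both SFRP1 and SFRP4 were at least 1 log2 unit above mock for 11 of the 45 (1.84% of all genes) and below it for 26 of the 59 (1.92%). SFRP2, SFRP3 and SFRP5 were all at least that far below mock for 14 of the 45 (0.853%) and above it for 5 of the 59 (0.644%). These shares are tied to the choice of genes that differ between the sets, and all of them rest on the same single mock reading. Mock was outside both sets for NELL2, a secreted neural EGF-like protein, at 929 in SFRP1 and 603 in SFRP4 but 149, 193 and 244 in SFRP2, SFRP3 and SFRP5, and 60.1 in mock. It was also outside both for the adenylosuccinate synthase gene ADSS (ADSS2 in RefSeq), at 7029 and 7136 in SFRP1 and SFRP4, 15936, 14933 and 15198 in SFRP2, SFRP3 and SFRP5, and 20993 in mock.

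**Figure D4:**
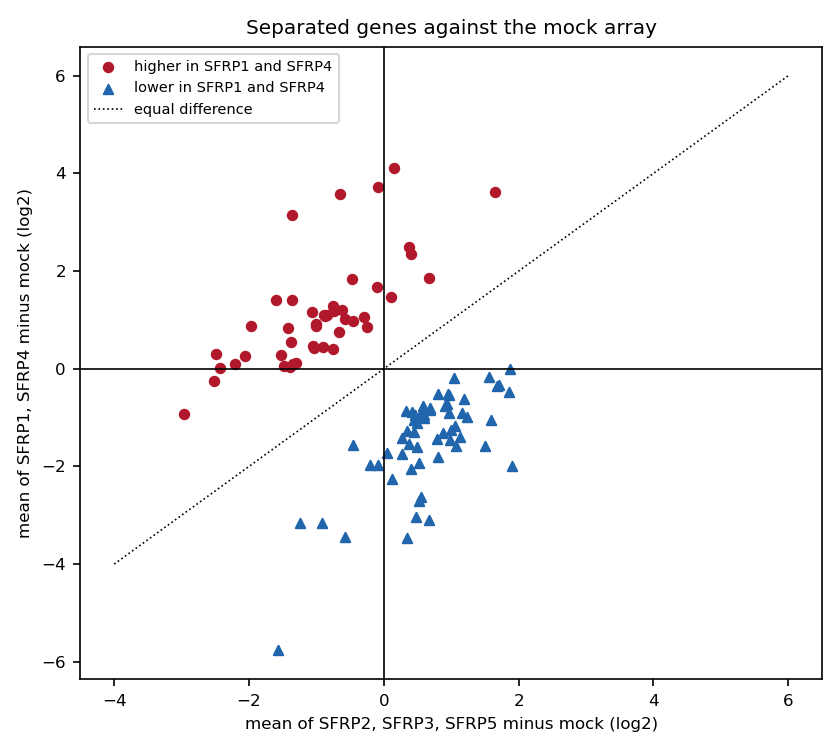
Each point is 1 of the 104 genes, with the mean of SFRP2, SFRP3 and SFRP5 minus mock on the horizontal axis and the mean of SFRP1 and SFRP4 minus mock on the vertical axis, both in log2 units. Red circles (45 genes higher in SFRP1 and SFRP4) lie above and blue triangles (59 lower) below the dotted line of equal difference because of how members were chosen, and TIMP3 is the lowest triangle.

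A second reading within the same arrays came from other probes. Of the higher genes 18 and of the lower genes 19 had another probe, which reached the table median for 10 and 14. This brighter kind separated the sets by at least 1 unit for 5 of 10 and 7 of 14 genes, at any distance for 6 and 12, and had the same sign of the difference of set means for 9 and 13. For a gene with several other probes, only the brightest of them was counted. None of the other probes counted, bright or dim, separated the sets in the opposite direction. ODC1, the first enzyme of polyamine synthesis, had a gap of -1.08 and another probe at -1.27, and SLFN5, a Schlafen gene, -1.53 and -1.56. DGAT1, of triglyceride synthesis, had a gap of 1.23 on its brighter probe while the other did not separate the sets.

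Some members lay next to one another in the genome (gene order from GRCh38.p14). DNTTIP2 and GCLM are adjacent among the measured genes of chromosome 1 and both were lower in SFRP1 and SFRP4. The 10 nearest measured genes had a median difference of set means of -1.01 around GCLM, and all 10 were negative. TRMT13, a tRNA methyltransferase gene on the same chromosome, also had 10 of 10 negative neighbours (median -0.81). On chromosome 6, PTK7 and TNFRSF21 each had 10 of 10 positive neighbours, with medians of 1.06 and 0.62. DGAT1 and the mRNA 3′ processing gene CPSF1, separated by 3 measured genes on chromosome 8, had 9 of 10 positive neighbours each. In all, at least 9 of the 10 nearest genes differed in the member's own direction for 25 of the 104 genes (24%), against 10.3% of all genes placed. This count is a description, since neighbouring members share neighbours and also count as neighbours of one another. The 10.3% covers all genes placed, most of which were not chosen for a difference between the sets. Chromosome 8 had the highest median difference of any chromosome (0.24 over 418 genes) and chromosome 9 the lowest (-0.22 over 479). Nearby genes did not always go together. On chromosome 14, SERPINA3 was higher in SFRP1 and SFRP4, and SERPINA1, with 1 measured gene between them, was lower. The second probe of SERPINA1 did not separate the sets. KRT15 and KRT19, adjacent on chromosome 17, were both lower.

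**Figure D5:**
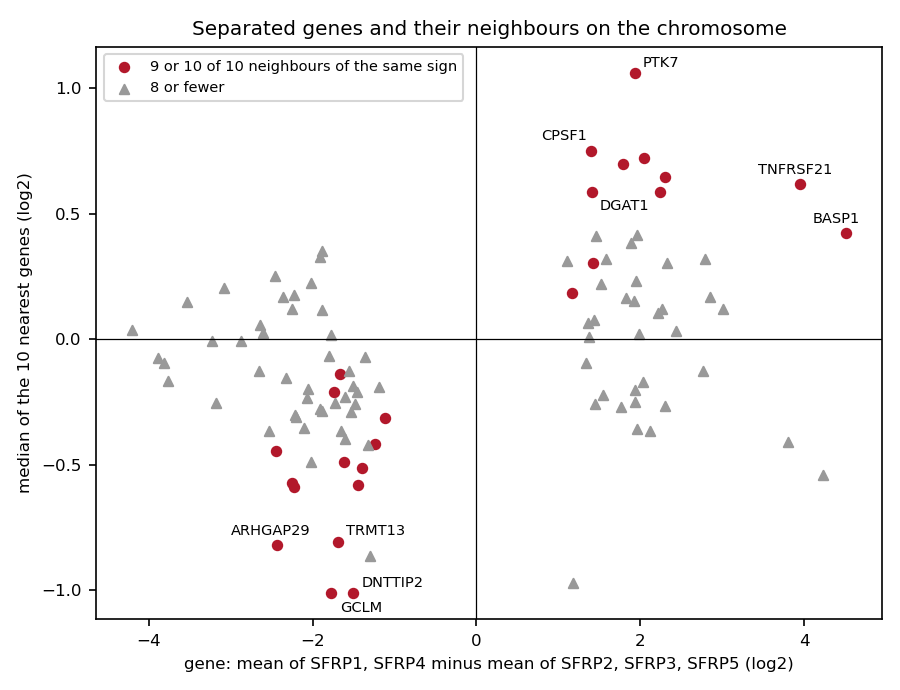
Each point is 1 of the 104 genes, with its own difference of set means (SFRP1 and SFRP4 minus SFRP2, SFRP3 and SFRP5, log2) on the horizontal axis and the median difference of its 10 nearest measured genes on the vertical axis. Red circles mark the 25 genes with at least 9 neighbours of the same sign: PTK7 is the highest of them at 1.06, and GCLM and DNTTIP2 are the lowest at -1.01.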

How the data were processed

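RNA of 6 clones, 1 array each, was amplified and labelled with Cy5 per the labels' protocols. The values deposited by the authors are linear intensity readings of 31741 probes. How the array images were read, corrected for background and scaled is not stated in the labels. Values were kept at their deposited scale, set to at least 0, and log2 was taken after adding a pseudocount of 1. Probes were named through the platform annotation: 24740 have 1 symbol and were used, 977 have several and 6024 have none. For genes with several probes (5441 of 18365) the one with the highest mean over the 6 arrays was taken, and 11954 genes reached the table's median of 9.33 (log2) on an array. Groups came from the sample titles, and the 2 sets, members and gene lists were chosen with earlier results of these data known. Separation is a count with no test. Genes named in full were the 12 per direction with the widest gap after readings were raised to the 10th percentile of their array, list members and those nearest the threshold; others were chosen after their values were seen. The values of 1 gene named by this rule are not reported here. Alternatives covered scaling, pseudocount, floor, filter, probe choice, threshold and leaving out each clone. The counting step returned the planted answers on simulated data. Python 3.11.15, pandas 2.3.3 and numpy 2.4.6 were used. Symbols, gene order and promoters came from RefSeq (GRCh38.p14), through which 6 of the 104 members have a newer symbol.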

Additional observations from a re-analysis of the deposited data

How the results depend on the processing

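Of the 104 genes, 65 (25 higher, 40 lower in SFRP1 and SFRP4) kept the 1-unit distance under all 6 changes of scaling (quantile, median centring), pseudocount (50), floor and probe choice, and 0 changed direction. Of the genes named with values by rule, SERPINA1, KRT8, TNC, MXD3, TRIB2, ZNF644, NUCB2, ZNF75A and NFKBIZ were under 1 unit in at least 1 of these. The counts of 45 and 59 were 43 and 56 under quantile normalization, 32 and 61 under median centring and 35 and 50 with a pseudocount of 50. A stricter filter at the 75th percentile left 26 higher genes. With a distance of 0.5 the 122 genes became 886 (309 higher and 416 lower above the table median), and with 2 they became 12 (4 and 6). Leaving out a clone can only raise the counts, which ranged from 227 to 1114 for all genes, from 70 to 376 for the higher and from 114 to 544 for the lower: all genes were 1114 without SFRP1, 400 without SFRP4, 309 without SFRP2, 282 without SFRP3 and 227 without SFRP5. The median difference of set means over all genes was -0.00052 under median centring and 0.03 under quantile normalization. No paired analysis was possible because each label has 1 array. With 1 array per clone no difference has an error, and dim readings near the floor of 53.2 to 91.0 have no order.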

Other observations

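From the 22 lists with no member, 3 are described here, picked after their counts were seen. In these 3, most genes separated at any distance were higher in SFRP1 and SFRP4. Other lists with no member were one-sided too, in either direction. Cytosolic ribosomal proteins had 7 lower and 0 higher, integrin and laminin genes 6 lower and 0 higher, and axon guidance genes 6 higher and 1 lower. Of 32 mitosis genes, 14 were higher and 1 lower in both SFRP1 and SFRP4 at any distance, where 14.7% and 16.4% of all genes were. The widest were PTTG1 (securin), at 0.99, and KIF20A, a mitotic kinesin, at 0.94. Of 28 hypoxia and glycolysis genes 11 were higher and none lower, led by P4HA1, a prolyl hydroxylase of collagen, at 0.92, and by the glycolytic gene ALDOC at 0.70. Of 22 cholesterol and fatty acid synthesis genes 7 were higher and none lower, with a median difference of set means of 0.46. In each of the 3 lists described the distances were mostly under 0.5, and none was tested.

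Of 33 interferon-stimulated genes, 11 were lower and 2 higher in both SFRP1 and SFRP4 at any distance. Among all measured genes 16.4% were lower and 14.7% higher. The median difference of set means was -0.70 for the list, against -0.00046 over all genes. In some interferon-stimulated genes the SFRP3 clone lay near SFRP1 and SFRP4. OAS1, an antiviral enzyme, had log2 levels of 8.40 in SFRP1, 7.90 in SFRP4 and 8.80 in SFRP3, against 12.93 in SFRP2, 12.95 in SFRP5 and 12.45 in mock. OAS3 had 12.58 in SFRP1, 12.63 in SFRP4 and 12.65 in SFRP3, against 15.21 in SFRP2, 14.73 in SFRP5 and 14.31 in mock, so the same 3 arrays were low. The gap of -0.40 for OAS1 is therefore the small distance between SFRP1 and SFRP3.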
